A study of Mus musculus with 3 samples.

Results

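Dorsal skin of alopecia areata (AA) model mice treated with a CXCL12-neutralizing antibody was compared with dorsal skin of control mice, to describe what still differed from skin without AA. The comparison used 2 of the 3 single-cell libraries of the series, named AA+Ab and Neg. Barcodes with at most 10% of their UMIs from mitochondrial genes and at least 200 genes were kept, which left 9832 of 10507 barcodes in AA+Ab and 6582 of 6965 in Neg, or 16414 of the 28351 barcodes of the series. The second population, the keratinocyte pool, held the kept cells with no UMI of *Ptprc*, the gene of the pan-leukocyte surface protein CD45, and at least 10 UMIs of the basal keratins *Krt5* and *Krt14* together. It counted 7309 AA+Ab cells and 5084 Neg cells. At the edge of that rule, 184 AA+Ab and 147 Neg cells had 10 to 11 keratin UMIs, and 218 and 163 cells without *Ptprc* had 8 to 9 and stayed outside.

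All 3 libraries came from female C3H/HeN mice of 25 weeks. Neg mice are labelled as a negative (vehicle) control and were unaffected. AA was modelled in this strain, according to the study, by transfer of cultured lymph node cells from affected donors into recipients with a normal coat. AA+Ab mice were AA model mice that received the CXCL12-neutralizing antibody, whose dose and schedule are not given in the sources used here. The study pooled the skin of 7-8 mice per group before capture, in methods that do not describe the antibody library. Each group is 1 library without a replicate. No test between groups was therefore possible. All differences described are between libraries. All intervals are exact 95% intervals that cover counting error only, and not differences between mice, pools or captures.

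AA is an autoimmune hair loss in which CD8+ T cells collect around the anagen hair follicle and the follicle loses its immune privilege. Interferon gamma from these cells acts through JAK-STAT signalling, raises MHC class I and interferon-inducible GTPases in keratinocytes, and induces the chemokines that bind CXCR3. CXCL12 is a chemokine of dermal fibroblasts and other stromal cells that binds CXCR4 on leukocytes and the scavenging receptor ACKR3.

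Kept cells held 139663314 UMIs in AA+Ab and 119193310 in Neg, with medians of 11371 and 13694.5 UMIs per cell, and the pool held 112139803 and 100888098 UMIs. Neg shared 17 barcode sequences with AA+Ab. Each gene's UMIs were added up within a library and scaled to 1000000 UMIs (CPM), so in sums over all cells fewer cells of a type and less RNA per cell cannot be told apart. The libraries held skin cells by their markers. All 9 keratinocyte markers were counted, with a median log2 ratio of AA+Ab to Neg of 0.02, and *Krt14* gave 6653 CPM in the AA+Ab pool and 5726 CPM in the Neg pool. UMIs of other cell types were also present in the pool. *Acta1*, the skeletal muscle actin, had a UMI in 33.9% of Neg pool cells and 16.0% of AA+Ab pool cells, at summed levels of 169 and 16.2 CPM.

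Most genes had close levels in antibody-treated AA skin and control skin. Of 15781 genes with at least 100 UMIs over both libraries, 157 were at least 2-fold higher in AA+Ab (0.995%) and 216 at least 2-fold lower (1.37%), and the median log2 ratio was -0.04. The ratio was above 1 for 6488 of these genes and below 1 for 9293, against which the counts for gene lists are to be read. For the same genes in AA without antibody, set against the same Neg library, 292 were at least 2-fold higher (1.85%) and 258 lower (1.63%). In the keratinocyte pool, 14576 genes were counted, of which 65 were at least 2-fold higher in AA+Ab (0.446%) and 264 lower (1.81%), with a median log2 ratio of -0.07, and 5353 ratios lay above 1 and 9223 below. The corresponding AA counts were 144 (0.988%) and 276 (1.89%). Because AA and AA+Ab share the Neg library, their ratios to it are not independent, and the values of each are given side by side only.

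Much of the list past 2-fold came from few cells. Over all cells, 71 of the 157 higher genes and 98 of the 216 lower genes had at least 50% of the UMIs of the richer library in 10 cells. In the pool this held for 21 of the 65 higher genes and 129 of the 264 lower genes. The share of all counted genes that meet this rule was not determined, so these counts do not set the genes past 2-fold apart from other genes. Among genes with a mean of at least 10 CPM whose UMIs were spread over more cells, 9 were higher over all cells, namely *Il1b*, *Sprr1a*, *Cxcl2*, *Pthlh*, *Fam110c*, *Krt6a*, *Cebpd*, *Krtap8-1* and *Fkbp5*. Over all cells 18 of the 46 named genes past 2-fold fell short of it under some alternative, such as *Il1b* at a log2 ratio of 0.98 with at least 1000 genes per cell and *Krt71* at -0.97 after thinning. The 10 lower ones were *Olfr1033*, *Wfdc8*, *Selenbp1*, *Hsph1*, *Depp1*, *Lsmem1*, *Zfp58*, *Krt71*, *Hspa1a* and *mt-Nd3*. In the pool, 8 genes were higher and 8 lower by the same rule. The higher 8 held *Hpgd*, which degrades prostaglandins, but not *Il1b* or *Cxcl2*, and the lower 8 did not hold *Wfdc8* or *Krt71*. Genes in these sets, and list members below, that the naming rule in the methods did not pick were chosen after their values were seen.

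**Figure D1:**
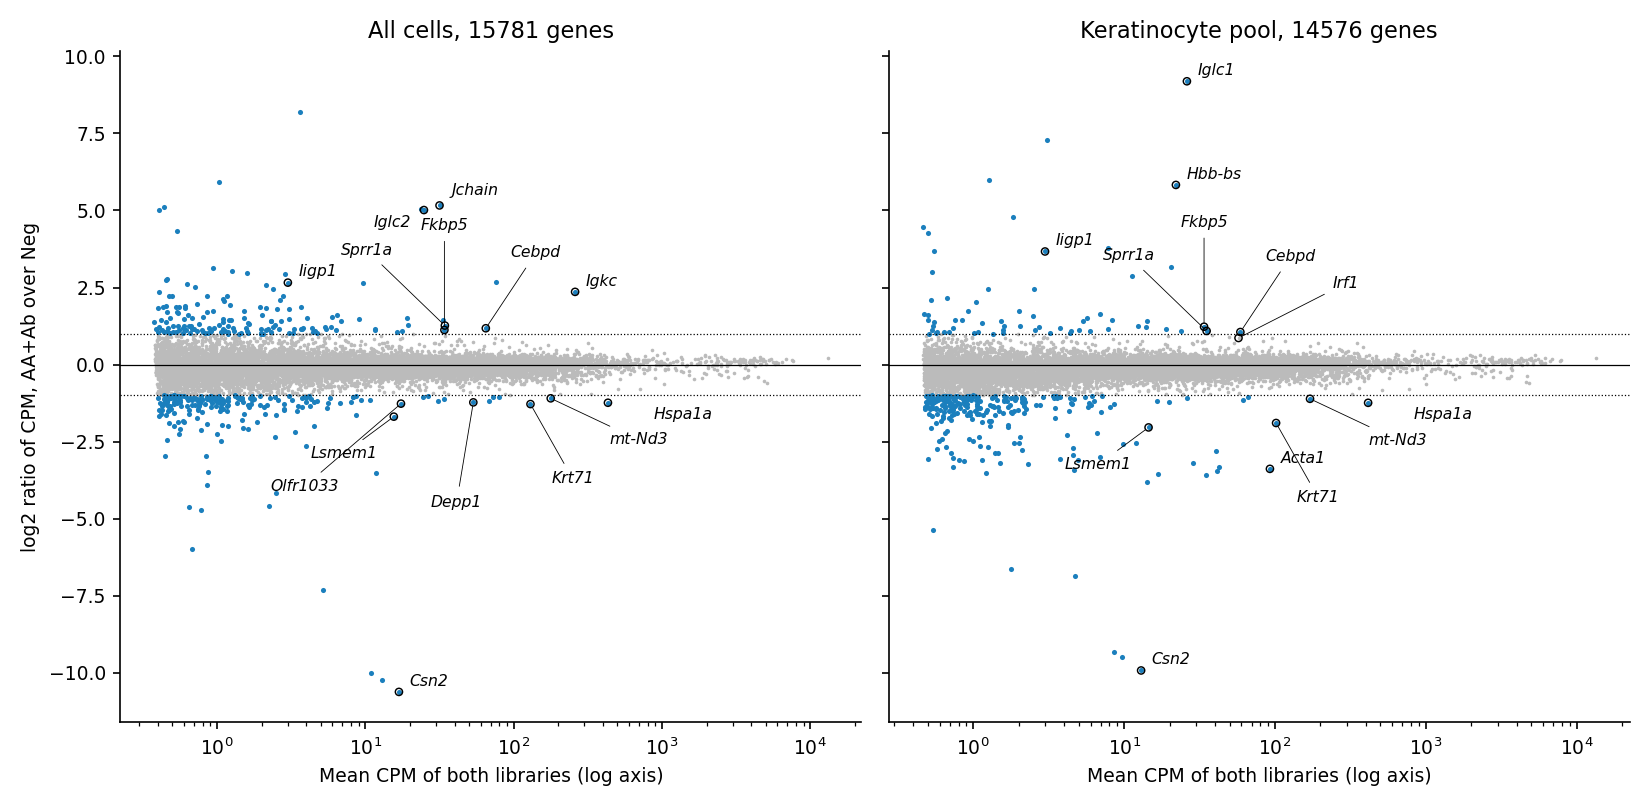
Each point is 1 counted gene, with the mean CPM of AA+Ab and Neg on the horizontal log axis and the log2 ratio of AA+Ab to Neg on the vertical axis, for all cells (left) and the keratinocyte pool (right). Blue points lie past the dotted 2-fold lines and circled genes are named. Genes with fewer than 3 UMIs in a library are drawn as if they had 3. Most points lie between the lines, and among the named genes *Csn2*, *Jchain*, *Iglc1*, *Iglc2* and *Hbb-bs*, whose UMIs few cells held, lie farthest from 0.

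Interferon-inducible GTPases were higher in antibody-treated skin than in control skin, but by far less than in untreated AA skin. These proteins, the immunity-related GTPases (IRG) and the guanylate-binding proteins (GBP), attack the vacuoles of intracellular pathogens and are classical targets of interferon gamma. Their summed level over all cells was 16.3 CPM in Neg (95% interval 15.5 to 17.0), 129 CPM in AA and 27.3 CPM in AA+Ab (26.5 to 28.2). Of 16 members, 12 were counted, 11 had a ratio of AA+Ab to Neg above 1 and 2 were at least 2-fold higher. Their median log2 ratio was 0.49, against -0.04 for all genes. In AA, all 12 were at least 2-fold higher than in Neg, with a median of 2.14. In the pool, 8 members were counted, all 8 had a ratio above 1, and the median was 0.62.

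*Iigp1*, an IRG protein, had the highest ratio of the counted members. It gave 0.822 CPM in Neg, 52.5 CPM in AA and 5.19 CPM in AA+Ab, a ratio of AA+Ab to Neg of 6.31 (5.11 to 7.88). In the pool the ratio was 12.7 (9.36 to 17.7), from 0.436 to 5.55 CPM. Only 98 AA+Ab pool cells and 15 Neg pool cells had a UMI of it, and 10 cells held 52.9% of the UMIs in AA+Ab. *Gbp2* was spread more widely, at 3.60 CPM in the Neg pool, 17.2 CPM in AA and 6.03 CPM in AA+Ab, a ratio of 1.68 (1.47 to 1.91). *Gbp7*, another guanylate-binding protein, gave a ratio of 1.67 (1.45 to 1.94), while *Irgm1*, a regulatory IRG protein, gave 1.25 (1.05 to 1.48). *Gbp3* was the member with a ratio below 1 over all cells, at 0.932 (0.656 to 1.33). GBP genes are close paralogs, and reads that fit several of them could be split or lost in counting.

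Few keratinocytes carried these transcripts in quantity. Cells with at least 10 UMIs of the list made up 0.465% of AA+Ab pool cells (34 of 7309, 0.322 to 0.649%), 0.0983% of Neg pool cells (5 of 5084, 0.0319 to 0.229%) and 4.11% of AA pool cells (336 of 8176). The 34 AA+Ab cells held 32.1% of the list's UMIs in that pool. Cells with at least 1 UMI were 18.5% in AA+Ab and 17.5% in Neg. After thinning each cell to 2000 UMIs, which 7275 AA+Ab and 5055 Neg pool cells reached, these shares were 4.34% and 2.79%, with 11.4% in AA.

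Genes of interferon gamma signalling had a lower median than the GTPases, while *Irf1* and *Socs3* stood well above control. *Irf1*, an interferon-induced transcription factor, gave 40.7 CPM in the Neg pool, 77.2 CPM in AA and 74.0 CPM in AA+Ab, so AA+Ab stood close to AA, with a ratio to Neg of 1.82 (1.75 to 1.89). Thinned to 2000 UMIs, the share of pool cells with an *Irf1* UMI was 12.3% in AA+Ab, 11.7% in AA and 7.58% in Neg. *Socs3*, an inhibitor of JAK signalling, gave 306 CPM in Neg and 458 CPM in AA+Ab, above the 426 CPM of AA. *Jak2*, a kinase of the interferon gamma receptor, had a ratio of 0.974 (0.929 to 1.02) and gave 56.4 CPM in AA against 32.1 CPM in AA+Ab. Of the 13 interferon gamma signalling genes, 12 were counted over all cells, with none past 2-fold, 10 with a ratio above 1 and a median log2 ratio of 0.19 while the AA median was 0.87.

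Type I interferon antiviral genes and antigen presentation genes showed smaller differences. Among 24 antiviral genes, 22 were matched and 20 counted over all cells, with 14 ratios above 1, 1 gene past 2-fold and a median of 0.26 against 1.47 in AA. *Ifi27* was the most abundant, at 96.6 CPM in Neg and 103 CPM in AA+Ab. *Isg15*, the ubiquitin-like modifier, was lower in the AA+Ab pool at 4.65 CPM than in the Neg pool at 6.31 CPM, while the AA pool stood at 18.5 CPM. *Zbp1*, a sensor of Z-form nucleic acids, gave 0.268 CPM in the Neg pool and 0.731 CPM in the AA+Ab pool, a ratio of 2.73 (1.75 to 4.39) from 27 and 82 UMIs.

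All 18 MHC class I presentation genes were counted in the pool, with 14 ratios above 1, none past 2-fold and a median of 0.15. *B2m*, the light chain of MHC class I, gave 905 CPM in Neg, 1255 CPM in AA and 1137 CPM in AA+Ab, a ratio of 1.26 (1.25 to 1.27). The heavy chain *H2-K1* had a ratio of 1.13 (1.12 to 1.14), and *Tap1*, a peptide transporter subunit, had 0.997 (0.961 to 1.03). *Cd274*, which encodes the checkpoint ligand PD-L1, gave 3.91 CPM over all Neg cells, 10.1 CPM in AA and 6.66 CPM in AA+Ab. H2 genes are polymorphic between strains and alike in sequence, and the C3H reads were counted against mm10, the genome of another strain.

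**Figure D2:**
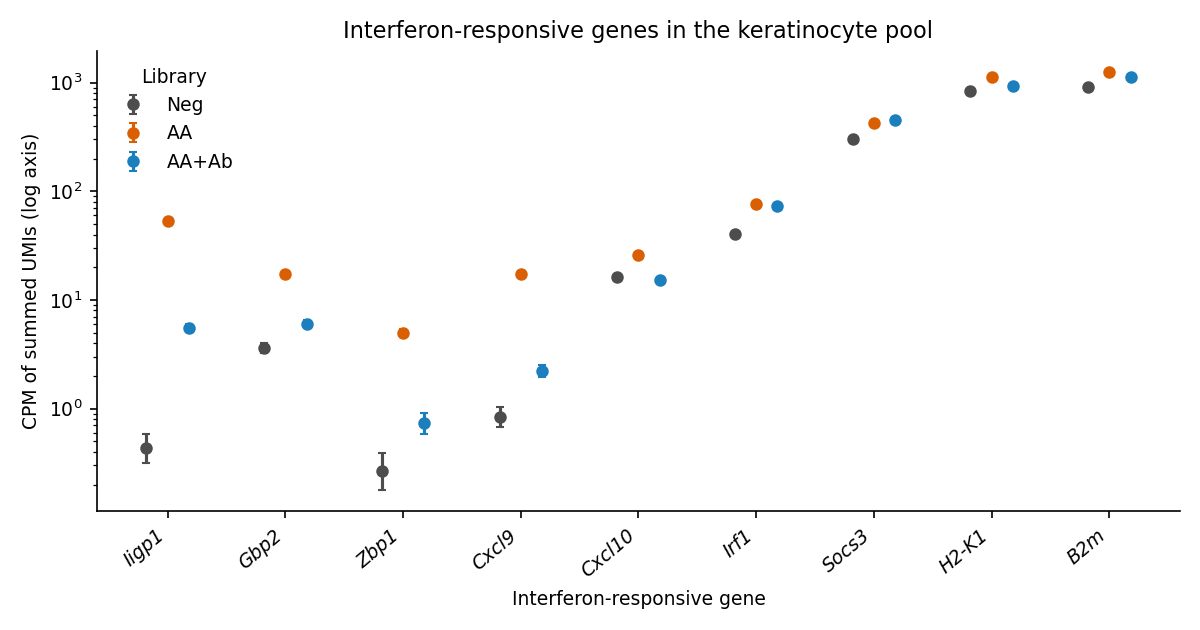
CPM of summed UMIs on a log axis for 9 interferon-responsive genes in the keratinocyte pool of Neg (grey), AA (orange) and AA+Ab (blue), with exact 95% Poisson intervals of the counts. AA+Ab lies between Neg and AA for *Iigp1*, *Gbp2*, *Zbp1*, *Cxcl9*, *Irf1*, *H2-K1* and *B2m*, below both for *Cxcl10* and above both for *Socs3*.

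The promoters of these genes were searched for 2 motifs of interferon-activated factors, GAAANNGAA for the interferon-stimulated response element and TTCNNNGAA for the gamma-activated site, on both strands in the 250 bases before the transcript start. RefSeq gave promoters for 10 GTPase genes, and of their 11 promoters 9 (81.8%) held the first motif and 6 (54.5%) the second. For type I interferon antiviral genes the shares were 47.4% and 15.8%, for interferon gamma signalling 18.2% and 27.3%, and for MHC class I presentation 15.8% and 5.26%. Among all 32851 promoters of the table they were 7.13% and 7.02%. A match describes letters, not binding. Shown here, with matches in capitals and on the GRCm38.p6 build, are the promoters of *Irf1* (chr11:53769764-53770013, plus strand), *Gbp2* (chr3:142620413-142620662, plus strand), *Irgm1* (chr11:48871421-48871670, minus strand) and *B2m* (chr2:122147437-122147686, plus strand), genes at which AA+Ab stood at different distances from Neg. In *Irf1* the match was the gamma-activated site, and the other 3 held response element matches, 2 overlapping ones in *Irgm1*. A second *Irf1* promoter, at chr11:53770223-53770472, held neither.
Irf1: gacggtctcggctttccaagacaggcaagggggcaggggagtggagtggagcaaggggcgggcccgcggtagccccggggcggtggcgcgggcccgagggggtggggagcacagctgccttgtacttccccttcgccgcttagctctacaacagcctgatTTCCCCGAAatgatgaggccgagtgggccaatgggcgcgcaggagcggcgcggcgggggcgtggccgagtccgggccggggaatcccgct
Gbp2: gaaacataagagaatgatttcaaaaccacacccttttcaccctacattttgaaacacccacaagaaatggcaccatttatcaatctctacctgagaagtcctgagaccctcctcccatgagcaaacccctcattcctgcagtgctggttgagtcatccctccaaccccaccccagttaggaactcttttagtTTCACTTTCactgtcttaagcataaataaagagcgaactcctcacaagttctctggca
Irgm1: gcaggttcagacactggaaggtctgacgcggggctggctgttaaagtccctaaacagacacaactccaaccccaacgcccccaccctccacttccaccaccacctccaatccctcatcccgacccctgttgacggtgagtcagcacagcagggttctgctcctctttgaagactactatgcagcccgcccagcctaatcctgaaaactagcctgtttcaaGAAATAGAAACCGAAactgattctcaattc
B2m: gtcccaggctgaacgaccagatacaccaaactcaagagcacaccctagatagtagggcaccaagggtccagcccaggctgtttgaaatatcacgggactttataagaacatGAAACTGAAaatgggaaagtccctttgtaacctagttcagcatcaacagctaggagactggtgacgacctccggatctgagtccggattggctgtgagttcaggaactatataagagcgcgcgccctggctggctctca

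Chemokines of the CXCR3 axis did not move as one group. *Cxcl9* gave 0.965 CPM in Neg, 18.5 CPM in AA and 1.96 CPM in AA+Ab, with 115 and 274 UMIs behind the Neg and AA+Ab values. Its log2 ratio of 1.02 was 0.24 as a mean over cells and 0.47 after thinning, below 2-fold. *Cxcl10* was lower in AA+Ab than in Neg, at 15.2 against 19.9 CPM, a ratio of 0.763 (0.719 to 0.809). Of 17 matched CC chemokines and receptors, 13 were counted over all cells, 3 were at least 2-fold higher, 1 lower and 11 had a ratio above 1. *Ccl2*, which draws monocytes, gave 3.22 CPM in Neg and 7.48 CPM in AA+Ab. *Ccl6*, a chemokine of the neutrophil and monocyte list, gave 1.49 and 3.95 CPM, *Ccr1*, a receptor of myeloid cells, 0.646 and 1.75 CPM, and *Ccl5*, a T cell attractant, 11.3 and 17.0 CPM, with 44.8 CPM of *Ccl5* in AA. *Ccl11*, the eosinophil attractant of fibroblasts, was lower, from 1.61 to 0.723 CPM. After thinning the log2 ratio was 0.98 for *Ccl6* and -0.74 for *Ccl11*, and with at least 1000 genes per cell it was 0.97 for *Ccr1*, each short of 2-fold.

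The transcript of the antibody's target was higher in AA+Ab than in Neg. *Cxcl12* gave 16.7 CPM in Neg, 24.4 CPM in AA and 23.3 CPM in AA+Ab, a ratio of 1.39 (1.32 to 1.48), and 1.47 (1.38 to 1.57) in the pool. Its transcript does not report the amount of free protein. *Ackr3* had a ratio of 1.05 (1.02 to 1.08). *Cxcr4* gave 2.47 CPM in Neg and 3.44 CPM in AA+Ab over all cells. Among cells with a *Ptprc* UMI, 19.2% (15.6 to 23.2%) of 437 Neg and 24.3% (21.2 to 27.6%) of 713 AA+Ab cells had a *Cxcr4* UMI, intervals that overlap. The ratio of CPM among these cells was 1.35 (1.13 to 1.61). In the pool the *Cxcr4* ratio changed sign under some processing alternative.

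Leukocytes were about as frequent in both libraries, but the cells among them differed. Cells with a *Ptprc* UMI made up 7.25% of AA+Ab cells (6.75 to 7.78%) and 6.64% of Neg cells (6.05 to 7.27%), or 5.05% and 4.53% after thinning. *Cd8a*, the coreceptor of CD8+ T cells, had a UMI in 11 of 6582 Neg cells, 216 of 10433 AA cells and 65 of 9832 AA+Ab cells, or 0.167% (0.0835 to 0.299%), 2.07% (1.81 to 2.36%) and 0.661% (0.511 to 0.842%). After thinning to 2000 UMIs, which 9422 AA+Ab and 6203 Neg cells reached, the shares in the same order were 0.0967%, 1.22% and 0.446%. In the keratinocyte pool, where the gene should be absent, 5 of 7309 AA+Ab cells and 0 of 5084 Neg cells had one, and 0 allows a share of up to 0.0590%, taken as 3 counts of the total. Median depth there was 11923 UMIs in AA+Ab and 14325.5 in Neg. The *Cd8a* level was 5.77 times that of Neg (3.78 to 9.17), from 25 and 169 UMIs, and 96.0% of the Neg UMIs lay in 10 of the 11 cells.

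Other T cell genes gave a mixed picture. *Trac*, the constant chain of the alpha-beta T cell receptor, gave 1.28 CPM in Neg, 6.02 CPM in AA and 3.37 CPM in AA+Ab, a ratio of 2.64 (2.20 to 3.20). *Trdc*, the delta chain carried by the gamma-delta T cells that live in mouse epidermis, gave 24.1, 9.54 and 23.8 CPM, with AA+Ab next to Neg in level. A *Trdc* UMI was found in 4.10% (3.64 to 4.61%) of Neg and 3.22% (2.88 to 3.59%) of AA+Ab cells. In the keratinocyte pool, where the gene should be absent, 1.34% of Neg and 0.903% of AA+Ab cells had one. After thinning, the shares of all cells were 2.72% (2.33 to 3.16%) and 2.30% (2.01 to 2.63%), intervals that overlap. Without thinning, *Trdc* was found in 42.8% (38.1 to 47.6%) of Neg and 33.0% (29.5 to 36.5%) of AA+Ab cells with a *Ptprc* UMI. Among cells with a *Ptprc* UMI, *Cd3e* of the T cell receptor complex was found in 51.0% of Neg and 51.8% of AA+Ab cells, and *Cd8a* in 2.29% (1.10 to 4.17%) and 8.42% (6.48 to 10.7%), with 27.0% in AA. Median UMIs of these cells were 5984 in Neg and 4461 in AA+Ab.

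*Ifng*, which encodes interferon gamma, gave 0.503 CPM in Neg, 5.56 CPM in AA and 1.94 CPM in AA+Ab, from 26 Neg and 67 AA+Ab cells, a ratio of 3.85 (2.90 to 5.19). Among cells with a *Ptprc* UMI, its share of cells was 5.03% (3.18 to 7.52%) in Neg and 7.71% (5.86 to 9.92%) in AA+Ab, intervals that overlap, against 25.1% in AA. The cytotoxic protease *Gzmb* did not separate the libraries, with a ratio of 0.897 (0.691 to 1.17), while AA stood at 3.24 CPM and Neg at 0.982 CPM. *Gzmc* had a ratio of 7.63 (6.04 to 9.75), but 10 AA+Ab cells held 88.5% of its UMIs, and without the 5 cells richest in it in each library its log2 ratio went from 2.93 to 0.18. *Klrk1*, the gene of the activating receptor NKG2D, gave 2.96 CPM in Neg and 3.97 CPM in AA+Ab, and its keratinocyte ligand *H60c* gave 12.8 and 16.8 CPM. *Il15*, the cytokine that sustains CD8+ T cells, had a ratio of 1.01 (0.892 to 1.15).

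**Figure D3:**
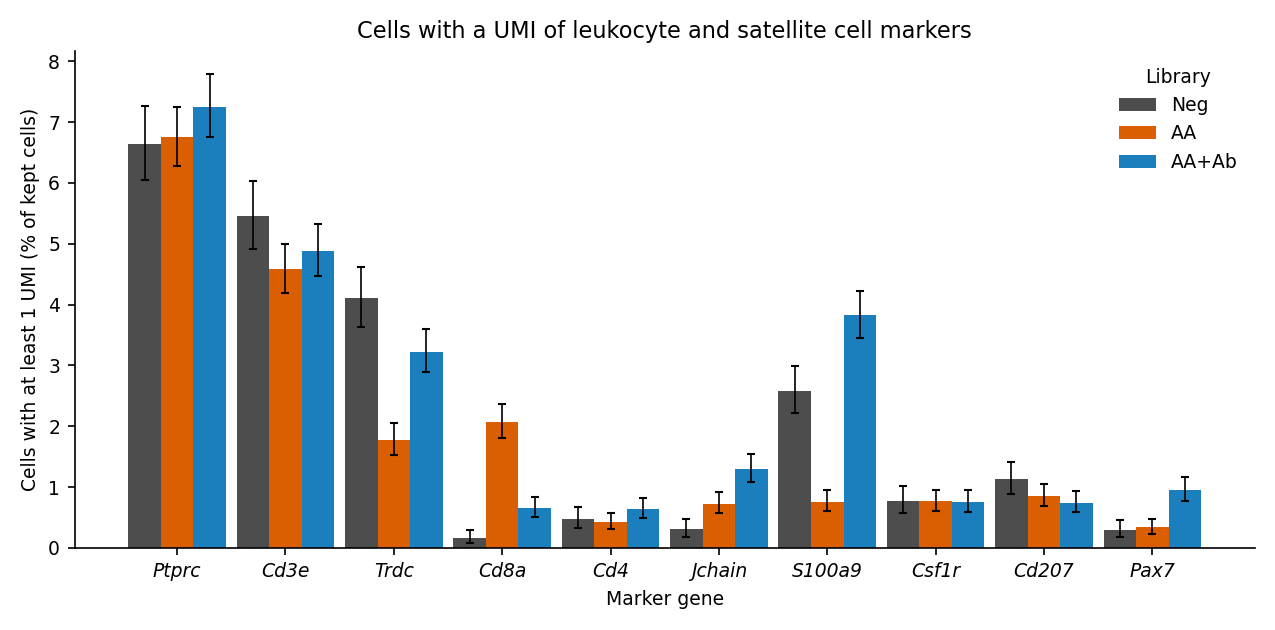
Percent of kept cells with at least 1 UMI of each marker in Neg (grey), AA (orange) and AA+Ab (blue), with exact 95% Clopper-Pearson intervals. The *Cd8a* share in AA+Ab lies between Neg and AA, the *Trdc* share lies nearer to Neg, and *Jchain*, *S100a9* and *Pax7* bars are highest in AA+Ab.

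Immunoglobulin genes had the largest ratios over all cells among genes with a mean of at least 10 CPM. *Jchain*, which joins polymeric antibodies in plasma cells, gave 1.72 CPM in Neg, 20.6 CPM in AA and 61.6 CPM in AA+Ab, and *Igkc*, the kappa constant chain, 84.7, 249 and 434 CPM. *Ighm*, the heavy chain of IgM, gave a ratio of 6.44 (6.17 to 6.72). In AA+Ab, 10 cells held 90.8% of the *Jchain*, 93.4% of the *Igkc* and 83.2% of the *Ighm* UMIs. In the keratinocyte pool, where a plasma cell gene should be absent, 1.19% of AA+Ab cells had a *Jchain* UMI, beside 1.29% of all AA+Ab cells, so that share is read as background. *S100a9* was in 3.05% and *Pax7* in 0.192% of AA+Ab pool cells. The lambda chains *Iglc1* and *Iglc2*, near-identical genes between which reads can be split, had ratios of 32.7 and 32.3 with 97.8% and 97.2% of their AA+Ab UMIs in 10 cells. *Cd79a*, a subunit of the B cell receptor, gave 0.529 CPM in Neg and 1.09 CPM in AA+Ab, with 63.2% of the AA+Ab UMIs in 10 cells. It had a UMI in 0.668% of Neg and 0.519% of AA+Ab cells, and in 0.0645% and 0.138% after thinning. All 3 counted B cell markers, *Cd79a*, *Ighm* and *Igkc*, were at least 2-fold higher in AA+Ab, but the log2 ratio of *Cd79a* was 0.88 without its 5 richest cells in each library.

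Neutrophil and monocyte genes were higher in AA+Ab than in Neg. All 7 markers of the list were counted over all cells, all 7 had a ratio above 1 and 2 were at least 2-fold higher, with a median log2 ratio of 0.87 while in AA the median was -0.76. *S100a9*, an abundant calcium-binding alarmin of neutrophils, gave 53.1 CPM in Neg, 11.3 CPM in AA and 96.9 CPM in AA+Ab, a ratio of 1.83 (1.77 to 1.88). Its UMIs lay in 170 Neg cells (2.58%) and 376 AA+Ab cells (3.82%), and 10 cells held 71.5% and 25.4% of them. Of these cells, 113 in Neg and 223 in AA+Ab belonged to the keratinocyte pool. After thinning, 0.725% of Neg and 1.37% of AA+Ab cells had an *S100a9* UMI. Its partner *S100a8* gave 29.9, 7.67 and 46.0 CPM. The inflammatory cytokine *Il1b* gave 11.4, 8.96 and 27.5 CPM, and *Cxcl2*, a neutrophil attractant, 17.9, 9.26 and 49.2 CPM. Among cells with a *Ptprc* UMI, *S100a9* was found in 7.78% (5.45 to 10.7%) of Neg and 15.3% (12.7 to 18.1%) of AA+Ab cells. In the pool, where *S100a9* and *S100a8* can also come from keratinocytes, *Il1b* gave 1.43 CPM in Neg and 1.38 CPM in AA+Ab.

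*Csf1r*, the receptor that marks macrophages, had a UMI in 0.775% of Neg and 0.753% of AA+Ab cells, and in 0.258% and 0.361% after thinning. Its ratio of CPM was 1.17 (0.902 to 1.53) over all cells and 1.67 (1.21 to 2.34) among cells with a *Ptprc* UMI. The complement gene *C1qb* was lower, but all of its UMIs, 94 in Neg and 14 in AA+Ab, lay in 8 and 6 cells. The mast cell protease *Mcpt4* gave 3.46 CPM in Neg, 0.568 CPM in AA and 2.02 CPM in AA+Ab, a ratio of 0.583 (0.499 to 0.680), and of the 5 mast cell markers 4 had a ratio below 1, a number too small to set apart from the 9293 of 15781 genes below 1.

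*Ripk1*, the kinase that the study follows in AA skin, did not lie near control in antibody-treated skin. It gave 24.3 CPM in Neg, 39.9 CPM in AA and 38.5 CPM in AA+Ab, a ratio of 1.58 (1.51 to 1.66), and 1.65 (1.57 to 1.74) in the pool. Its UMIs were widespread, with 1.84% of them in 10 AA+Ab cells, and thinned to 2000 UMIs 4.67% of Neg and 8.85% of AA+Ab pool cells had one. The 15 RIPK1 pathway genes as a list did not share this, with 7 ratios above 1, 8 below and a median log2 ratio of -0.06 over all cells. *Tnfaip3*, which restrains the pathway, had a ratio of 1.01, and *Birc3*, a ubiquitin ligase that acts on RIPK1, 0.795 (0.772 to 0.818).

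Keratins and alarmins of the stress list mostly had ratios above 1 in antibody-treated skin, with few past 2-fold. Of 13 matched genes, 12 were counted over all cells, all 12 with a ratio above 1, at a median of 0.63 against -0.16 in AA. The 3 at least 2-fold higher were *Krt6a*, *Krt6b* and *Il1b*. In the pool 11 of 12 had a ratio above 1, and the medians were close, 0.47 in AA+Ab and 0.43 in AA. The list shares *S100a8* and *S100a9* with neutrophils. *Il1b* was not higher in the pool, while among cells with a *Ptprc* UMI it gave 226 CPM in Neg and 584 CPM in AA+Ab. *Krt6a*, a keratin of wounded epidermis and of the companion layer, gave 8.42 CPM in the Neg pool, 20.8 CPM in AA and 19.5 CPM in AA+Ab, a ratio of 2.32 (2.14 to 2.51). *Krt17* gave 556, 507 and 706 CPM, so that AA+Ab was the highest of the 3. *Krt16* was at 51.5 CPM in Neg and 60.4 CPM in AA+Ab, and 139.6 CPM in AA, but its log2 ratio of 0.23 turned to -0.08 after thinning and as a mean over cells. *Krt6b* had a ratio of 62.8 in the pool, but 6 cells held all 279 AA+Ab UMIs, and Neg had 4 UMIs.

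Further genes at least 2-fold higher in the pool had other roles in epidermis. Of the 42 named pool genes past 2-fold, 25 fell short of it under some processing alternative, among them *Krt6a* at a log2 ratio of 0.98 after thinning, *Fam110c* at 0.96 without cycling cells and *Krtap8-1* at 0.78 without hair keratin cells. *Sprr1a*, a precursor of the cornified envelope, gave 22.5 CPM in Neg, 54.6 CPM in AA and 47.9 CPM in AA+Ab. *Pthlh*, the parathyroid hormone-like factor that restrains hair growth, gave 7.31, 9.73 and 17.5 CPM, a ratio of 2.39 (2.19 to 2.60). *Fkbp5*, a cochaperone of the glucocorticoid receptor, gave 20.3, 26.0 and 47.5 CPM, a ratio of 2.34 (2.23 to 2.47) from 1056 Neg and 2488 AA+Ab cells. The transcription factor *Cebpd* gave 38.3, 64.0 and 79.6 CPM, and *Fam110c* 11.8, 22.1 and 26.0 CPM. *Krtap8-1*, a hair keratin-associated protein with close paralogs, had a ratio of 2.66 (2.45 to 2.89), and *Cstdc5*, a cystatin gene with near-identical neighbours, 7.37 with 82.8% of its AA+Ab UMIs in 10 cells.

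The lists of the upper hair follicle and the companion layer had medians above the median of all genes, the latter at 0.34 in the pool with 4 of 6 ratios above 1. These lists are not separate from the stress list or from each other. *Krt17* belongs to all of them, *Krt6a* to the stress and companion lists, *Defb6* to the stress and upper follicle lists, and *Krt79* to the companion and upper follicle lists. Over all cells the upper follicle median, 0.36, was the value of *Krt17*. In the upper follicle list 9 genes were counted in the pool, 5 with a ratio above 1 and 4 below, and none was past 2-fold. Their log2 ratios ran from -0.43 to 0.71, at a median of 0.34 against -0.39 in AA. The list thus did not move as a whole, although the members named next all had ratios above 1. *Defb6*, a beta-defensin, gave 146 CPM in Neg, 112 CPM in AA and 239 CPM in AA+Ab, a ratio of 1.64 (1.61 to 1.67). *Krt79*, a keratin of the infundibulum, gave 181, 129.8 and 246 CPM, and the thinned share of pool cells with a UMI of it was 4.57% in Neg and 6.76% in AA+Ab. *Cst6*, a cystatin of the upper follicle and granular layer, had a ratio of 1.63 (1.61 to 1.66) over all cells.

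**Figure D4:**
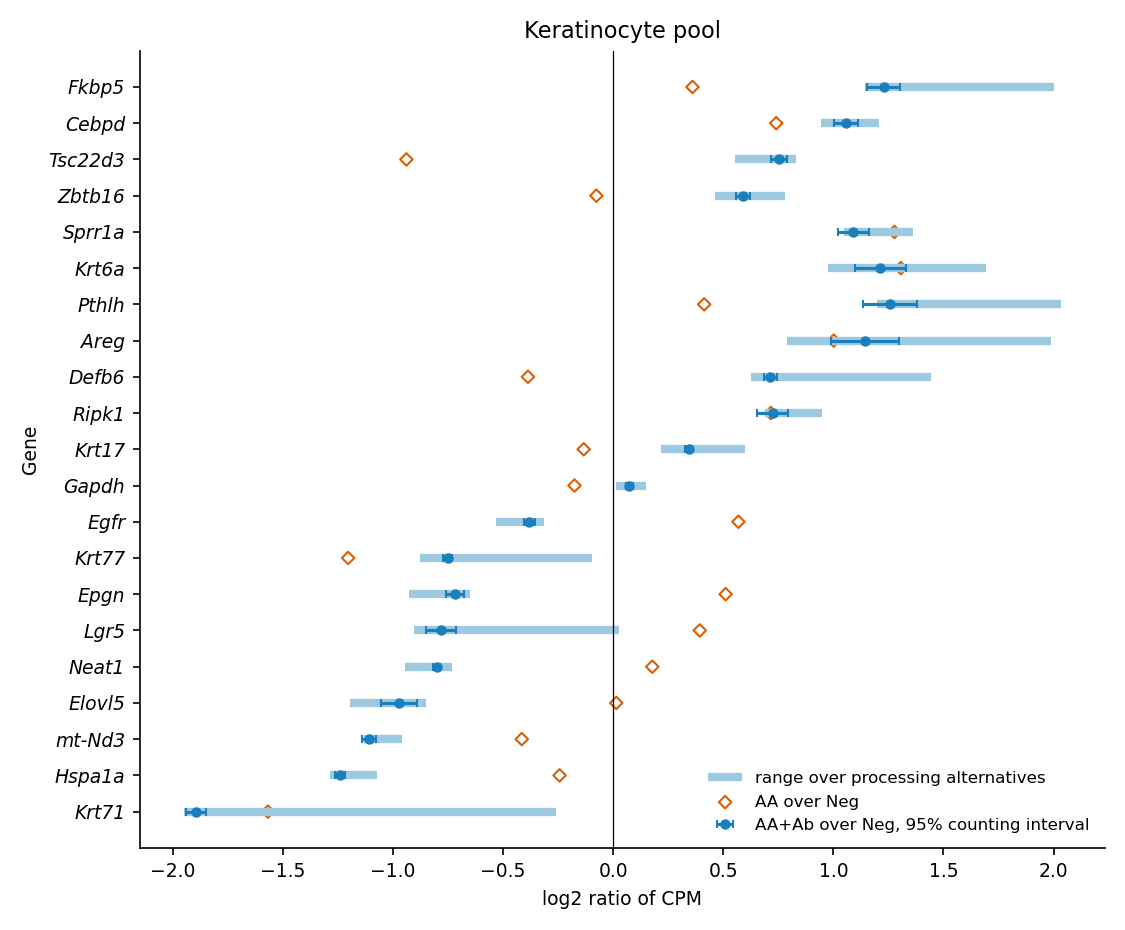
Log2 ratios of CPM in the keratinocyte pool for 21 genes. Blue points with bars are AA+Ab over Neg with exact 95% counting intervals, pale bars span the values under the processing alternatives, and open diamonds are AA over Neg. *Fkbp5*, *Tsc22d3* and *Defb6* are above 0 in AA+Ab and have a higher ratio there than in AA, where *Defb6* lies below 0. *Egfr*, *Epgn*, *Lgr5* and *Neat1* lie above 0 in AA and below 0 in AA+Ab, and the pale bar of *Lgr5* crosses 0.

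Proliferation genes stood at the control level. All 20 S phase genes and all 22 G2/M genes were counted over all cells, none past 2-fold, with medians of -0.01 and 0.02 in AA+Ab and -0.35 and -0.34 in AA. *Mki67*, a marker of cycling cells, had a ratio of 1.08 (1.06 to 1.10), and *Cenpf*, a kinetochore protein, 1.28 (1.26 to 1.31). Cells with a UMI of *Mki67*, *Top2a* or *Cdk1* were 46.7% of Neg, 33.2% of AA and 44.2% of AA+Ab cells, and 25.6%, 18.3% and 24.2% after thinning.

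Genes of the growing hair follicle did not move as one group. *Shh*, the matrix signal of anagen, gave 7.71 CPM in Neg, 7.81 CPM in AA and 12.3 CPM in AA+Ab, a ratio of 1.60 (1.48 to 1.73), and the WNT inhibitor *Wif1* gave 22.3, 29.6 and 36.5 CPM. In the pool the *Shh* log2 ratio of 0.76 turned to -1.83 with the 1% keratin rule. *Lef1*, a WNT transcription factor of the matrix, had a ratio of 1.08. *Foxn1*, the factor of hair shaft differentiation that is lost in nude mice, gave 8.60, 5.72 and 5.76 CPM, a ratio of 0.670 (0.610 to 0.736). *Krt35*, a keratin of the early hair cortex, gave 127, 76.6 and 109.6 CPM. Hair keratin-associated proteins summed over all cells to 19.5 CPM in Neg, 16.8 CPM in AA and 42.4 CPM in AA+Ab. Their ratio of AA+Ab to Neg was 2.18 (2.07 to 2.29). Of 57 members 9 were counted, 7 with a ratio above 1 and 2 below. At least 2-fold higher were 3 and lower 1, beside 0.995% and 1.37% of all counted genes. Cells with at least 10 UMIs of the inner root sheath and hair shaft keratins were 22.6% of Neg, 12.3% of AA and 17.2% of AA+Ab cells, and 2.02%, 1.25% and 1.44% after thinning.

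*Krt71*, a keratin of the inner root sheath, was lower in AA+Ab than in Neg and AA, at 75.7, 184 and 94.9 CPM over all cells. In the pool its log2 ratio was -1.89 and went to -0.54 without the cells that had at least 10 UMIs of these keratins and to -0.26 without cycling cells. Its neighbour in the sheath, *Krt27*, did not follow, with a ratio of 1.19 (1.14 to 1.23), and *Tchh*, trichohyalin, had 1.25 (1.21 to 1.28). Of 12 inner root sheath genes counted over all cells, 5 had a ratio above 1 and 7 below. In the pool 3 of the 12 had a ratio above 1 and 9 below, at a median log2 ratio of -0.25 against -0.07 for all genes. There the ratios of *Krt27* and *Tchh* changed sign under some processing alternative.

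*Lgr5* and *Cd34*, stem cell genes of the bulge and lower outer root sheath, were lower, while *Krt15*, the abundant keratin of the bulge, was near control. *Lgr5* gave 40.7 CPM in Neg, 54.7 CPM in AA and 26.2 CPM in AA+Ab, a ratio of 0.644 (0.617 to 0.672). *Cd34* gave 5.91, 8.86 and 3.62 CPM. A *Cd34* UMI was found in 2.69% (2.31 to 3.11%) of Neg and 2.38% (2.09 to 2.70%) of AA+Ab cells, intervals that overlap. In the pool the shares were 2.30% (1.91 to 2.75%) and 1.96% (1.65 to 2.30%), whose intervals also overlap. *Krt15* had a ratio of 0.966 from 334463 UMIs in Neg and 378458 in AA+Ab, but the *Lgr5* ratio in the pool, a log2 of -0.78, was at 0.03 when *Krt5* and *Krt14* had to make up at least 1% of a cell's UMIs. *Sox9*, a factor of the outer root sheath, had a ratio of 1.33 (1.29 to 1.38). Of 17 genes of the bulge and outer root sheath list counted over all cells, 7 had a ratio above 1 and 10 below. In the pool 16 were counted, 8 above and 8 below.

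**Figure D5:**
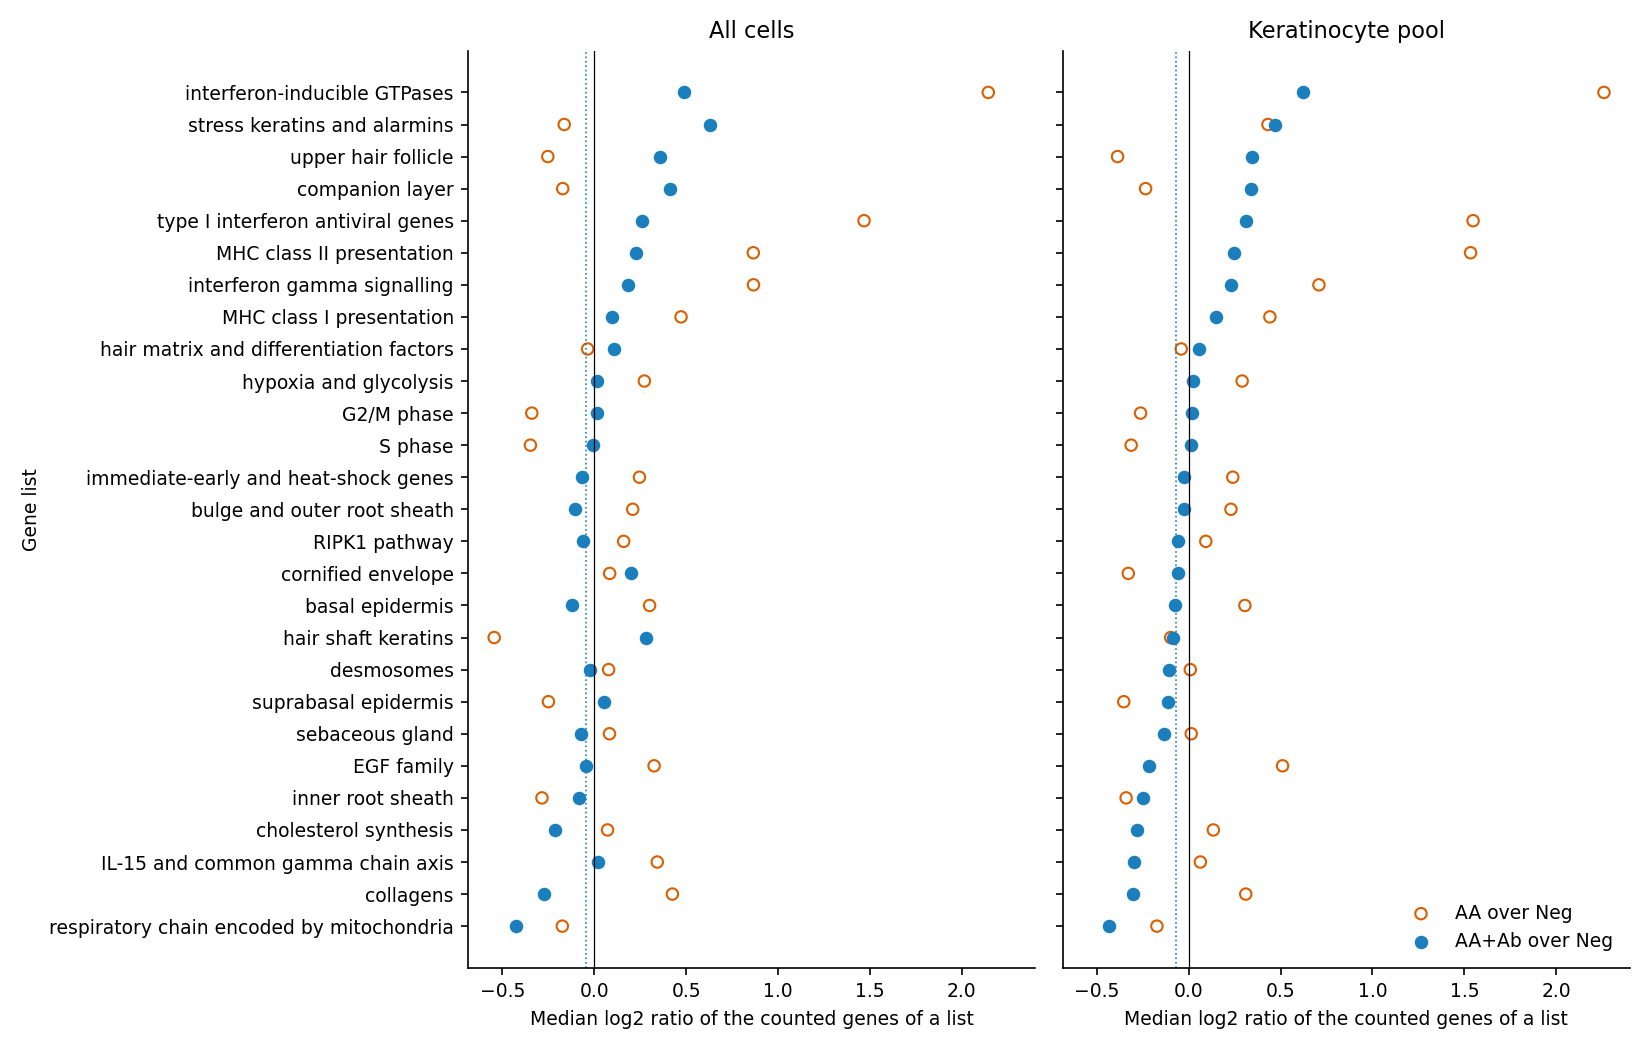
Median log2 ratio of the counted genes of each pathway or structure list, cell type marker lists left out, with at least 5 genes counted in the pool, over all cells (left) and in the keratinocyte pool (right), for AA+Ab over Neg (blue) and AA over Neg (open orange, same Neg library). The dotted line is the AA+Ab median of all counted genes. The interferon lists lie far to the right in AA and near 0 to 0.62 in AA+Ab, and the mitochondrial list has the lowest AA+Ab median of the lists shown in both panels.

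Some heat-shock transcripts were lower in antibody-treated skin, and *Hspa1a* was found in most cells of both libraries. *Hspa1a*, an inducible HSP70 gene, gave 607 CPM in Neg, 533 CPM in AA and 257 CPM in AA+Ab, a ratio of 0.424 (0.419 to 0.430), with UMIs in 5242 and 6080 Neg and AA+Ab cells. Its near-identical copy *Hspa1b*, with which it can share reads, gave 437, 353 and 224 CPM. *Hsph1*, an HSP70 exchange factor, had a ratio of 0.480 (0.465 to 0.495), but the cochaperone *Dnajb1* stood at 0.957. Immediate-early genes of the same list, which tissue digestion is known to induce, lay near control, at 0.989 for *Jun*, 0.996 for *Egr1* and 1.18 for *Fos*. Over the list of 21 genes, 6 had a ratio above 1, 2 were at least 2-fold lower and the median was -0.06. The nuclear RNA *Neat1* gave 903, 1051 and 525 CPM.

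Transcripts of the mitochondrial genome were lower as a whole. All 13 respiratory chain genes had a ratio below 1 in both populations, with a median log2 ratio of -0.42 over all cells and -0.17 in AA, and 1 of them was past 2-fold. *mt-Nd3*, a complex I subunit, gave 242 CPM in Neg, 182 CPM in AA and 113 CPM in AA+Ab, while *mt-Nd1* of the same complex had a ratio of 0.859. *mt-Atp6*, of the ATP synthase, gave 6123, 5109 and 4054 CPM. The filter on cells limits the mitochondrial share, and the median share per kept cell was 1.81% in AA+Ab, 2.17% in AA and 2.35% in Neg. In AA+Ab, 675 of 10507 barcodes were removed for over 10% mitochondrial UMIs, and in Neg 382 of 6965. Over all cells the list median ran from -0.43 to -0.25 under the processing alternatives.

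Other genes below control belonged to growth factor signalling, sterol synthesis and matrix. *Epgn*, the EGF family ligand epigen, gave 102 CPM in Neg, 145 CPM in AA and 58.7 CPM in AA+Ab, a ratio of 0.577 (0.561 to 0.593), and the receptor *Egfr* gave 316, 466 and 251 CPM. Other ligands went the opposite way, with ratios of 1.36 for *Hbegf*, 1.32 for *Tgfa* and 1.36 for *Areg*, so that 5 of 10 family genes lay above 1 and 5 below. Of 16 cholesterol synthesis genes, 15 had a ratio below 1, beside 9293 of all 15781 genes, none was past 2-fold and the median was -0.22. *Sqle*, squalene epoxidase, had a ratio of 0.799 (0.768 to 0.831), and *Srebf2*, the regulator of the pathway, 0.750 (0.732 to 0.768). Among collagens 14 of 16 had a ratio below 1, at a median of -0.27 against 0.43 in AA. *Col4a1*, of basement membranes, had 0.739 (0.698 to 0.782), *Thbs1*, the matrix protein thrombospondin, 0.708 (0.696 to 0.720), and *Col17a1* of the hemidesmosome 0.912.

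Among differentiation and lipid genes of the pool, *Krt77*, a keratin of suprabasal cells and sweat ducts, gave 449 CPM in Neg, 195 CPM in AA and 267 CPM in AA+Ab. *Krt10* of the spinous layer had a ratio of 0.791 (0.784 to 0.798) in the pool and 0.996 over all cells, and its pool log2 ratio of -0.34 turned to 0.18 without hair keratin cells. *Elovl5*, which elongates polyunsaturated fatty acids, gave 31.8, 32.2 and 16.2 CPM. *Fabp5*, the epidermal fatty acid carrier, had 0.729 (0.724 to 0.734), with its log2 ratio of -0.46 at 0.14 under the 1% keratin rule.

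The lowest ratios of all came from few cells of 1 library. The milk casein genes *Csn2*, *Csn1s2a* and *Csn1s1* had 4019, 3094 and 2615 UMIs in Neg and 0 in AA+Ab, and their CPM in AA was also 0. Set against a floor of 3 UMIs in AA+Ab, they were at least 1570-fold, 1208-fold and 1021-fold lower than in Neg, and 10 Neg cells held 95.5% of the *Csn2* UMIs. In the pool, all 6 skeletal muscle markers were at least 2-fold lower, with a median of -3.19, and over all cells 3 of the 6 were. *Acta1* had a pool ratio of 0.0959 (0.0914 to 0.101), with 85.5% of its Neg UMIs in 10 cells, and without the 5 cells richest in it in each library its log2 ratio went from -3.38 to -1.71. All 3 satellite cell markers were at least 2-fold higher over all cells, with *Pax7*, the muscle stem cell factor, in 19 Neg and 93 AA+Ab cells, or 0.289% (0.174 to 0.450%) and 0.946% (0.764 to 1.16%), and 0.113% and 0.520% after thinning. *Corin*, a protease of the dermal papilla, gave 1.12 and 3.93 CPM, with 92.5% and 63.4% of its UMIs in 10 cells. The hemoglobin gene *Hbb-bs*, of red blood cells, gave 60.6 CPM over all Neg cells, 0.428 CPM in AA and 58.3 CPM in AA+Ab. Its log2 ratio of -0.06 went to 5.50 when cells had to hold at least 1000 genes. In the AA+Ab pool 10 cells held 98.6% of the *Hbb-bs* UMIs.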

How the data were processed

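Single-cell suspensions of collagenase-digested dorsal skin, depleted of red blood cells and debris, were captured with 10x Genomics 3' v3.1 chemistry. The authors deposited, for each library, a matrix of raw UMI counts per gene and barcode, for 32285 genes; the submitters' processing notes name Cell Ranger 7.2.0, FastQC 0.11.7 and the mm10 genome. The methods of the study do not describe the antibody library. No column was left unmapped.

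Cells were filtered as given in the report. Counts were summed per library and scaled to CPM, and a gene was counted with at least 100 UMIs over AA+Ab and Neg and called past 2-fold. Kept cells held between 119193310 and 139663314 UMIs per library. Intervals at 95% were exact (conditional binomial for ratios, Poisson for sums, Clopper-Pearson for shares), and a floor of 3 counts stood in for 0. With 1 library per group no group test was run. Doublets (367 Neg and 826 AA+Ab cells marked at 0.8% per 1000 barcodes with simulated neighbours) were kept, and removed as an alternative.

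The cells, genes and lists were chosen with earlier results of these data known. In each population the naming rule took the 10 highest and 10 lowest ratios at a mean of at least 10 CPM, the most abundant, highest and lowest counted member of each list, and a set of fixed genes; every other gene named was chosen after its values were seen. Symbols without a match, such as *Mx1*, *Mx2* and *Cxcl11*, were not analysed here. Alternatives changed scaling, filters, thresholds and the pool rule; leaving out the 5 richest cells of each gene, and values among cells with a *Ptprc* UMI, were added after seeing the data. Statistics were tested on simulated data. Promoters came from RefSeq (GRCm38.p6). Python 3.11.15, numpy 2.4.6, scipy 1.17.1, pandas 2.3.3, scikit-learn 1.9.0 and matplotlib 3.10.9 were used.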

Additional observations from a re-analysis of the deposited data

How the results depend on the processing

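No paired analysis was possible because each group is 1 library, and for the same reason no library could be left out. Over all cells, where 157 genes were higher in AA+Ab and 216 lower, the numbers became 345 and 499 after thinning each cell to 2000 UMIs, 396 and 709 with a minimum of 20 UMIs per gene, 62 and 59 with 500, 435 and 795 at a fold of 1.5, and 54 and 46 at a fold of 3. Without the 5 richest cells of each gene 236 were higher. In the pool, 65 and 264 became 223 and 545 after thinning, 214 and 908 with 20 UMIs, 30 and 56 with 500, 175 and 883 at a fold of 1.5, and 23 and 79 at a fold of 3. The lower genes in the pool numbered 108 where *Krt5* and *Krt14* made up at least 1% of a cell's UMIs, and 102 without cycling cells.

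Among named log2 ratios, 2413 alternative values moved less than their interval, and 1271 moved more. For ratios past 2-fold, 16 alternative values changed sign and are given here. With smaller ratios included, 25 named genes over all cells and 56 in the pool changed sign under some alternative. *Oasl1* over all cells turned to -0.018 after thinning. In the pool, leaving out the 5 richest cells turned *Hbb-bs* to -0.11, *Hba-a1* to -0.37, *Hbb-bt* and *Krt6b* to -0.15, and *Cd14* to 0.087. The 1% keratin rule turned *Hbb-bs* to -0.088, *Hba-a1* to -0.24, *Hbb-bt* and *Elovl3* to -0.30, and *Cd14* to 0.25. Without cycling cells *Cxcl9* turned to -1.24, *Lyz2* to 0.33 and *Cd14* to 0.38, thinning turned *Lyz2* to 0.060, and leaving out *Krt1* and *Krt10* cells turned *Krt6b* to -0.24. The causes were not tested.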

Other observations

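Genes known to respond to glucocorticoids or to the circadian clock were looked at after their values were seen. *Tsc22d3*, an early glucocorticoid target, gave 86.2 CPM over all Neg cells, 51.0 CPM in AA and 143 CPM in AA+Ab, a ratio of AA+Ab to Neg of 1.65 (1.61 to 1.69). *Zbtb16*, another such target, had a ratio of 1.45 (1.42 to 1.48), next to the higher *Fkbp5* and *Cebpd*. *Per1*, also inducible by glucocorticoids, stood at 0.744 (0.714 to 0.776), and *Klf9* at 1.02. Not all of these genes therefore moved one way.

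Among clock genes, *Nr1d1*, a repressor of the clock, gave 17.4 CPM in Neg, 32.6 CPM in AA and 9.36 CPM in AA+Ab, and *Cry2* gave 15.9, 17.0 and 8.97 CPM. Their relatives *Nr1d2* and *Per2* had ratios of 0.914 and 0.979, *Dbp* and *Tef* of 0.877 and 1.04, and *Arntl*, the activator of the clock, of 0.804. The hour at which skin was taken from each group is not given in the sources used here and its part in these values was not tested.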
